A study of Homo sapiens with 6 samples.

Results

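NRF2, encoded by NFE2L2, is the transcription factor that switches on the cell's defence against oxidants and reactive chemicals. The genes described here are 9 widely used NRF2 targets (NQO1, GCLC, GCLM, HMOX1, TXNRD1, SRXN1, SLC7A11, AKR1B10 and AKR1C1) together with GPX2, a glutathione peroxidase made mainly in the epithelium of the gut. They were taken by name, and all 10 have a probe on the array, out of 20039 genes with a probe. A gene entered the tests if a probe of it was brighter than the noise threshold on both arrays of at least 1 group, which held for 9 of the 10; AKR1C1 stayed below the threshold on all 6 arrays.

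The cells are LoVo, an established human colorectal adenocarcinoma line. Stable lines were made by lentiviral infection with a non-targeting control in the pLKO.1 vector (shCTL) or with 1 of 2 short hairpin RNAs against LGR5 (shLGR5-1 and shLGR5-2), and all were grown with serum and puromycin. LGR5 is the R-spondin receptor found on intestinal crypt stem cells, where it heightens Wnt signalling. Each line was measured on 2 Illumina bead arrays, and the labels do not say that the 2 samples were separate cultures or infections, so a p-value here speaks only of how far these arrays spread, and that spread may be technical.

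In unstressed cells the adaptor KEAP1 holds NRF2 for destruction by the proteasome. Oxidants and electrophiles modify KEAP1, NRF2 then accumulates, pairs with small MAF proteins and binds the antioxidant response element (ARE) in front of its target genes. Its targets make glutathione, keep thioredoxin reduced, and detoxify quinones, haem and aldehydes. NRF2 activity is set largely through the stability of the protein, which these arrays do not measure.

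The core of the ARE was searched as TGACNNNGC, on both strands (GCNNNGTCA is its reverse complement), in RefSeq promoters (GRCh38.p14) running from 250 bases before to 50 bases after each start. The element shares its TGAC letters with the AP-1 motif TGACTCA. Of 35116 promoters, 4687 (13.3%) held a match, and the table covered 7 of the 10 genes with 8 promoters. A match was found for 3 of those 7 genes, GPX2, GCLM and TXNRD1, in 4 promoters. The GPX2 promoter is shown at length because the widest change described below is that of GPX2; the shorter windows show the other matches for comparison. In each line the match is in capitals, read 5′ to 3′ along the gene's strand. A further TXNRD1 match spans the start and is not shown.
GPX2, chr14:64942746-64942995, minus strand, match from base -122 to -114 relative to the start: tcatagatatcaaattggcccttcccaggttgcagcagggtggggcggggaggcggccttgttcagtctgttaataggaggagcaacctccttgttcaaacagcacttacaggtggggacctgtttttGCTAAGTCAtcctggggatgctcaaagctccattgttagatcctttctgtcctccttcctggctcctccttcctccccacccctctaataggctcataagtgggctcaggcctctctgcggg
GCLM, chr1:93909436-93909484, minus strand, match from base -34 to -26: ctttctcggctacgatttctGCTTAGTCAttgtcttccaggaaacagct
TXNRD1, first start, chr12:104215660-104215708, plus strand, match from base -99 to -91: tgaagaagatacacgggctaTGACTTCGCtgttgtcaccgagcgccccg
TXNRD1, second start, chr12:104286910-104286958, plus strand, match from base -102 to -94: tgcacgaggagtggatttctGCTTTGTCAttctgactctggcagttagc
A match describes these letters in these windows and is not evidence of binding.

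LGR5, the hairpins' target, read 44.4 and 49.2 on the shCTL arrays, -1.1 and 7.0 with shLGR5-1, and 12.5 and 19.2 with shLGR5-2. The probe was dim in the controls (the noise threshold is 16.45) and lower with each hairpin. It was at least 2.84-fold lower with shLGR5-1 (limma adjusted p = 0.00167) and 1.98-fold lower with shLGR5-2 (limma adjusted p = 0.0197), the second call being lost in 6 of 16 alternatives, among them those without either shCTL array or either shLGR5-2 array, with adjusted p from 0.00924 to 0.287. All 12 markers of colorectal epithelium were above the threshold in shCTL and shLGR5-1, with summed intensities of 43477 to 44039 and 46775 to 47539. Their levels had shifted with shLGR5-1 all the same, 5 higher and 7 lower by the test, beside 40.3% and 31.5% of all genes. The median log2 change of the markers was -0.48, beside 0.28 over all genes. CDH17, an intestinal cadherin, was 15.9-fold lower with shLGR5-1 and 7.15-fold lower with shLGR5-2 (limma adjusted p = 1.32e-04 and 2.61e-04), the first being -3.17 on the log2 scale in place of -3.99 with the span trend described below removed. In shLGR5-2, 7 of 12 were above the threshold on both arrays, with a summed intensity of 53316 to 53861. The median log2 change of the markers there was -1.04, beside -0.003 over all genes. By the test 5 markers were higher and 6 lower, beside 21.6% and 22.6% of all genes. The higher ones were CDH1 (2.78-fold), KRT19 (1.60-fold), KRT18 (1.54-fold), KRT8 (1.48-fold) and EPCAM (1.34-fold). CDX1, CEACAM5, KRT20, LGALS4 and VIL1 were below the threshold on both shLGR5-2 arrays. CEACAM5 was at least 72.9-fold and LGALS4 at least 30.0-fold lower there than in shCTL. Markers of fibroblasts were near the noise (summed 27 to 91 over all arrays, 1 of 6 genes above the threshold in each group) and none of 5 endothelial markers was above it on both arrays of any group. Of 6 leukocyte markers, 2 were above it on both arrays of each group (all 6 summed 1162 to 1243 in shCTL, 1366 to 1481 in shLGR5-1 and 282 to 326 in shLGR5-2). These were CD68 and LYZ in shCTL, and CD68 and CD14 in both hairpin lines. They did not move together. In the order shCTL, shLGR5-1 and shLGR5-2, CD68 had means of 1125.8, 1257.85 and 142.5. CD14 had 18.25, 108.95 and 135.0, and LYZ 36.7, 11.5 and 10.05. CD3E was above the threshold on no array. The part of these marker shifts in the results below was not tested. In bulk RNA, fewer cells that express a gene and less RNA of it per cell cannot be told apart.

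The NRF2 target genes did not move as a block: within each hairpin line some rose while others fell, and the lines differed from each other. All values are the authors' normalized intensities, changes are differences of log2(intensity + 16) with a standard error (SE) from 2 arrays a group, and a gene is called changed at a limma adjusted p below 0.05 over all 12111 genes tested. With shLGR5-1, 8 of the 9 tested members changed against shCTL, 3 higher (NQO1, HMOX1, SRXN1) and 5 lower (GCLC, GCLM, TXNRD1, SLC7A11, AKR1B10), where 71.8% of all genes were called, 40.3% higher and 31.5% lower. With shLGR5-2, 6 of 9 changed, 2 higher (NQO1, HMOX1) and 4 lower (GPX2, AKR1B10, GCLC, SLC7A11), where 44.2% of all genes were called, 21.6% higher and 22.6% lower. Between the hairpins, 7 of 9 differed, 3 higher and 4 lower in shLGR5-2, where 73.3% of all genes were called, 33.6% higher and 39.8% lower. With shares of called genes this wide, the number of members called says little, and so do the counts for the markers above and the gene lists below. The sizes and directions are what is described. The median log2 change over the 9 members was -0.70 with shLGR5-1 and -0.35 with shLGR5-2, beside 0.28 and 0.00 over all genes tested. Both comparisons use the same shCTL arrays.

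**Figure D1:**
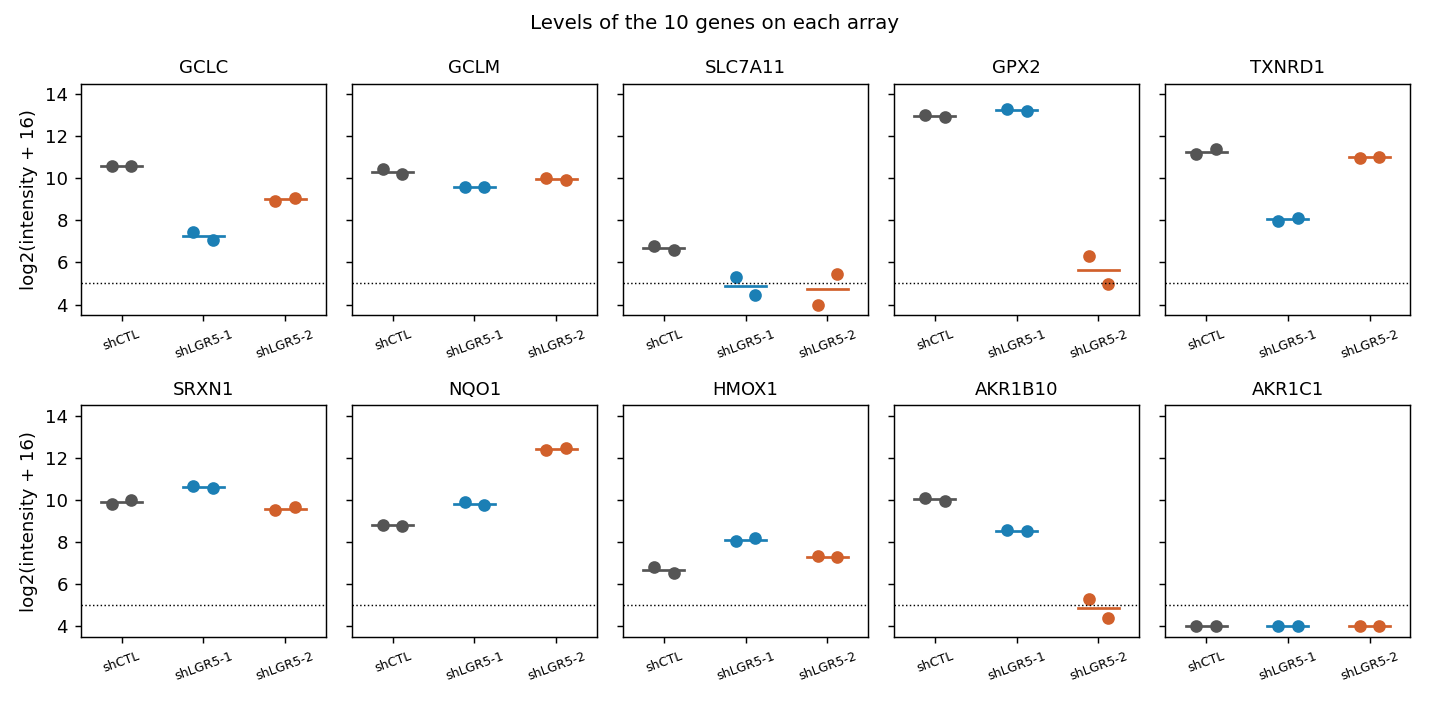
Intensity of each NRF2 target gene and GPX2 on every array, as log2(intensity + 16), 1 panel a gene; points are arrays, horizontal bars group means (n = 2) and the dotted line the noise threshold. GPX2 sits high in shCTL and shLGR5-1 and drops to the threshold in shLGR5-2, NQO1 climbs from shCTL to shLGR5-1 to shLGR5-2, and AKR1C1 stays below the threshold on all 6 arrays.

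GPX2 gave the widest change of the members, a near loss of signal in the shLGR5-2 line. The enzyme uses glutathione to reduce hydrogen peroxide and lipid hydroperoxides in gut epithelium. Its probe read 8137.6 and 7770.0 in shCTL, 10186.7 and 9431.7 in shLGR5-1, and 63.2 and 15.8 in shLGR5-2. The shLGR5-2 arrays thus fell from among the brighter signals to the edge of the noise, 1 of the 2 lying below the threshold. Against shCTL the log2 change was -7.31 ± 0.43 (SE), 159-fold lower (limma adjusted p = 3.79e-04), and the 95% interval ran from -8.42 to -6.21. Because the low side is so dim, the size depends on how dim values are treated: it was -6.53 with an offset of 50 and -7.98 with a floor of 1 and no offset, and it was -7.97 without shLGR5-2 replicate 1 and -6.65 without replicate 2. With shLGR5-1 both arrays lay above both controls, but the log2 difference of 0.30 (95% interval -0.80 to 1.41) did not pass the test (limma adjusted p = 0.557, and 0.0698 to 0.731 over 16 alternatives). The direct difference between the hairpins was -7.61 ± 0.43 (limma adjusted p = 1.41e-04).

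The 3 genes whose profile over the 6 arrays was most like that of GPX2 were CKMT1A, PPP1R1B and CEACAM6, with root mean square differences of 0.21, 0.29 and 0.36 on the log2 scale after centring. CKMT1A, a mitochondrial creatine kinase with a near-identical neighbouring copy, read 3298.4 and 3234.9 in shCTL, 4878.6 and 4757.5 in shLGR5-1, and 10.6 and -3.9 in shLGR5-2. PPP1R1B, the phosphatase regulator also known as DARPP-32, read 2683.0 and 2455.2, then 3072.7 and 3117.4, then 4.3 and -8.8. CEACAM6, a surface glycoprotein of colorectal epithelium, read 4446.5 and 4137.7, then 3317.0 and 3005.9, then 9.6 and -23.7. All 3 share with GPX2 a bright signal in shCTL and shLGR5-1 and none above the threshold, or almost none, in shLGR5-2. This likeness follows from the choice, as the 3 were picked for it on these same arrays.

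The other glutathione peroxidases did not follow GPX2. Of 7 family members with a probe, 4 were tested: 3 rose with shLGR5-1 and all 4 rose with shLGR5-2, beside 40.3% and 21.6% of all genes. GPX1, the cytosolic enzyme of most cells, read 2671.0 and 2981.2 in shCTL, 6208.2 and 6092.4 in shLGR5-1, and 4920.8 and 5526.9 in shLGR5-2, a rise of 2.17-fold and 1.84-fold (limma adjusted p = 0.00111 and 0.00506); with the span trend described below removed, the log2 rise with shLGR5-1 was 0.47 in place of 1.12. GPX4, which reduces lipid hydroperoxides within membranes, rose 1.69-fold and 1.68-fold (limma adjusted p = 0.00247 and 0.00538), and its rise with shLGR5-1 was no longer called once that trend was removed (adjusted p = 0.188; 7.26e-05 to 0.188 over 17 alternatives). GPX8, an endoplasmic reticulum member, stayed near the threshold in shCTL (47.9 and 19.8) and shLGR5-1 (38.7 and 45.0) and reached 911.7 and 805.8 in shLGR5-2. That is 18.3-fold higher than in shCTL (log2 4.19 ± 0.29, limma adjusted p = 6.12e-04), with log2 values of 3.46 with an offset of 50, 4.80 with a floor of 1, and 2.58 as the mean of its probes. GPX3, the plasma enzyme, was called higher with both hairpins from a dim base of 21.1 and 15.6 in shCTL, the second value lying below the threshold. It passed the filter only through the hairpin groups, where it was high, so its rise is no independent support for these counts. In shLGR5-2, then, the GPX2 probe was near the noise while those of the other 4 tested peroxidases were above their control values.

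**Figure D2:**
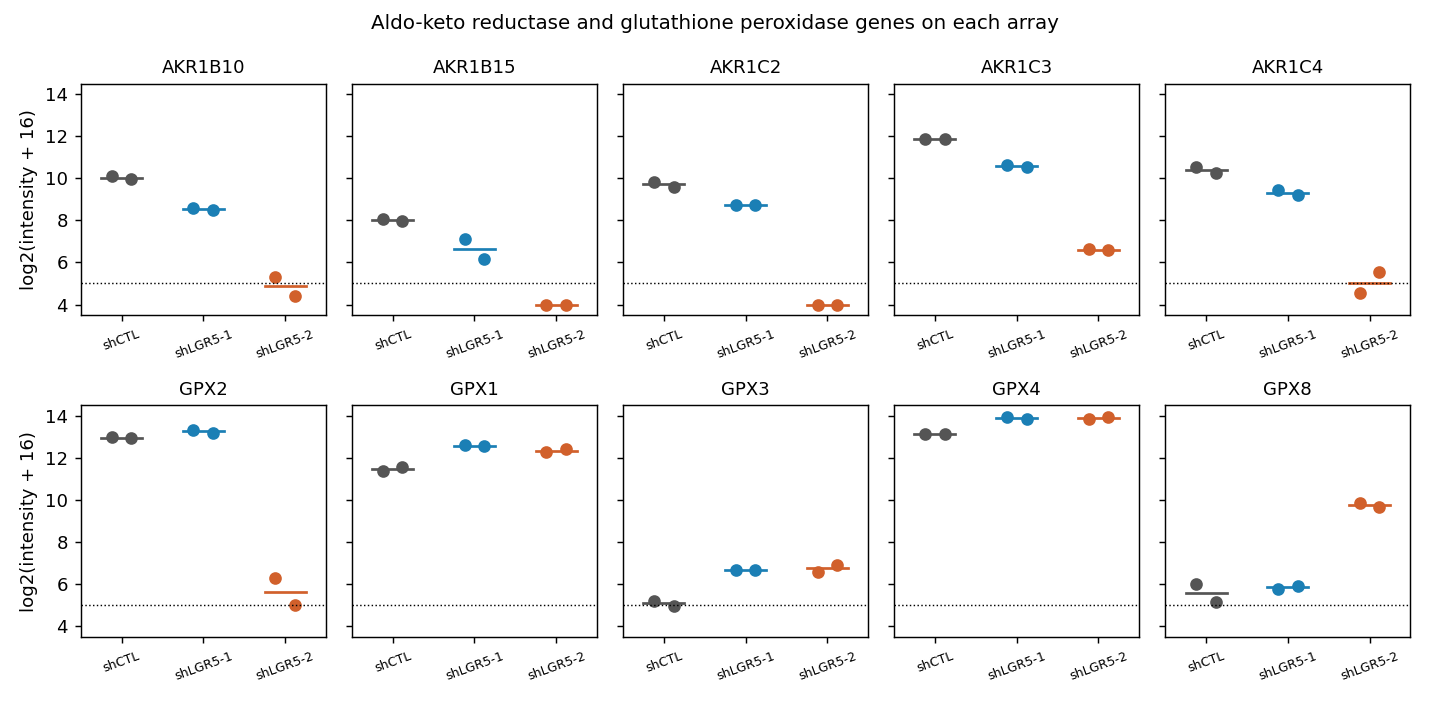
AKR1B10 with 4 aldo-keto reductase relatives that fell in shLGR5-2 (top row) and glutathione peroxidase genes (bottom row) on every array, as log2(intensity + 16); points are arrays, horizontal bars group means (n = 2) and the dotted line the noise threshold. In shLGR5-2 the 5 aldo-keto reductases and GPX2 lie far below their shCTL values, while GPX1, GPX3, GPX4 and GPX8 lie above their shCTL values; AKR1D1, AKR1E2, AKR7A2 and AKR7A3 are not drawn.

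Glutathione synthesis begins with glutamate-cysteine ligase, made of the catalytic subunit GCLC and the modifier subunit GCLM. GCLC read 1498.2 and 1503.7 in shCTL, 156.1 and 117.8 in shLGR5-1, and 474.6 and 515.7 in shLGR5-2. The 3 groups did not overlap, and the catalytic subunit was lowest with shLGR5-1. It fell by 3.32 ± 0.16 (SE) on the log2 scale with shLGR5-1 (10.0-fold, limma adjusted p = 1.69e-04) and by 1.57 ± 0.16 with shLGR5-2 (2.97-fold, limma adjusted p = 0.00174). A second, much dimmer GCLC probe (75.3 and 34.7 in shCTL) was at least 3.11-fold lower with shLGR5-1 (limma adjusted p = 0.0446) and gave -1.43 with shLGR5-2 (limma adjusted p = 0.0924); the mean of both probes was -2.47 with shLGR5-1. The modifier subunit moved far less. GCLM read 1357.2 and 1148.8 in shCTL, 762.6 and 761.3 in shLGR5-1, and 1002.4 and 950.6 in shLGR5-2. It was 1.63-fold lower with shLGR5-1 (log2 -0.70 ± 0.13, limma adjusted p = 0.00575). Its log2 difference of -0.35 with shLGR5-2 did not pass (95% interval -0.68 to -0.02, limma adjusted p = 0.0832), and 2 of 17 alternatives called it, with adjusted p from 0.0303 to 0.951. Its second probe read 48.2 and 64.9 in shCTL, -6.6 and 26.5 in shLGR5-1, and 83.7 and 73.8 in shLGR5-2, so the probes disagree in sign for shLGR5-2, where neither passed.

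SLC7A11, the cystine importer xCT that supplies cysteine for glutathione, was dim throughout. It read 93.5 and 80.5 in shCTL, 24.2 and 5.8 in shLGR5-1, and -0.9 and 27.3 in shLGR5-2, so that each hairpin line had 1 array above the threshold and 1 below. Every knockdown array lay below both controls. The log2 change was -1.80 ± 0.55 with shLGR5-1 (limma adjusted p = 0.0318) and -1.97 ± 0.55 with shLGR5-2 (limma adjusted p = 0.0382). Neither call was stable: adjusted p ran from 0.00527 to 0.228 and from 0.0079 to 0.165 over 16 alternatives, and the value with shLGR5-2 was -1.14 with an offset of 50 and -4.05 with a floor of 1. The first call was lost without shCTL replicate 1 (adjusted p = 0.138), shCTL replicate 2 (0.111) or shLGR5-1 replicate 2 (0.108), and the second without shCTL replicate 1 (0.165), shCTL replicate 2 (0.14) or shLGR5-2 replicate 1 (0.107). Its partner chain SLC3A2, named here after its values were seen, read 2142.9 and 2106.9 in shCTL, 2093.7 and 2089.0 in shLGR5-1, and 1641.6 and 1946.3 in shLGR5-2, and passed the test in neither comparison (limma adjusted p = 0.881 and 0.179).

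In the thioredoxin branch the main feature was the loss of TXNRD1 signal with shLGR5-1. TXNRD1 is the cytosolic selenoenzyme that keeps thioredoxin reduced. It read 2268.5 and 2664.7 in shCTL, 238.6 and 258.1 in shLGR5-1, and 1987.4 and 2080.4 in shLGR5-2. The shLGR5-1 arrays stood far below the other 4. The fall with shLGR5-1 was 3.23 ± 0.13 on the log2 scale, that is 9.37-fold (limma adjusted p = 1.45e-04). With shLGR5-2 the difference of -0.27 did not pass (95% interval -0.61 to 0.07, limma adjusted p = 0.155). The second TXNRD1 probe gave the same picture with shLGR5-1, 6.77-fold lower (1711.7 and 2064.5 against 250.4 and 278.8, limma adjusted p = 2.13e-04), and 0.30 with shLGR5-2 (limma adjusted p = 0.167).

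SRXN1, sulfiredoxin, which repairs over-oxidised peroxiredoxins, moved the other way. It read 881.5 and 994.1 in shCTL, 1623.2 and 1506.0 in shLGR5-1, and 714.8 and 796.7 in shLGR5-2. The shLGR5-1 arrays were above both controls and the shLGR5-2 arrays below both. The rise with shLGR5-1 was 1.66-fold (log2 0.73 ± 0.13, limma adjusted p = 0.00509), while the difference of -0.31 with shLGR5-2 did not pass (95% interval -0.64 to 0.03, limma adjusted p = 0.118). The hairpins differed by -1.04 ± 0.13 (limma adjusted p = 0.00143).

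NQO1 and HMOX1 were the 2 members called higher with both hairpins. NQO1 reduces quinones and is among the most used readouts of NRF2 activity. It read 437.2 and 418.1 in shCTL, 950.2 and 846.2 in shLGR5-1, and 5381.9 and 5650.8 in shLGR5-2, 3 groups with wide gaps between them. The rise was 2.06-fold with shLGR5-1 (log2 1.04 ± 0.12, limma adjusted p = 0.00116) and 12.5-fold with shLGR5-2 (log2 3.64 ± 0.12, limma adjusted p = 7.90e-05). A dim second NQO1 probe (8.5 and 18.0 in shCTL) rose 5.04-fold with shLGR5-2 (limma adjusted p = 0.00264) and gave 0.53 with shLGR5-1 (limma adjusted p = 0.128); averaging the probes lowers the log2 change with shLGR5-2 to 2.99. HMOX1, haem oxygenase 1, breaks down haem and responds to BACH1 as well as to NRF2. It read 95.4 and 76.8 in shCTL, 251.5 and 273.1 in shLGR5-1, and 146.1 and 140.3 in shLGR5-2. HMOX1 thus ran in the opposite order to NQO1 between the hairpins, being highest with shLGR5-1. Its rise was 2.74-fold with shLGR5-1 (log2 1.45 ± 0.14, limma adjusted p = 6.84e-04) and 1.57-fold with shLGR5-2 (log2 0.65 ± 0.14, limma adjusted p = 0.0173). The smaller rise lost its call without shCTL replicate 2 (adjusted p = 0.0753), shLGR5-2 replicate 1 (0.0714) or shLGR5-2 replicate 2 (0.0604), within a range of 0.00659 to 0.0753 over 17 alternatives.

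**Figure D3:**
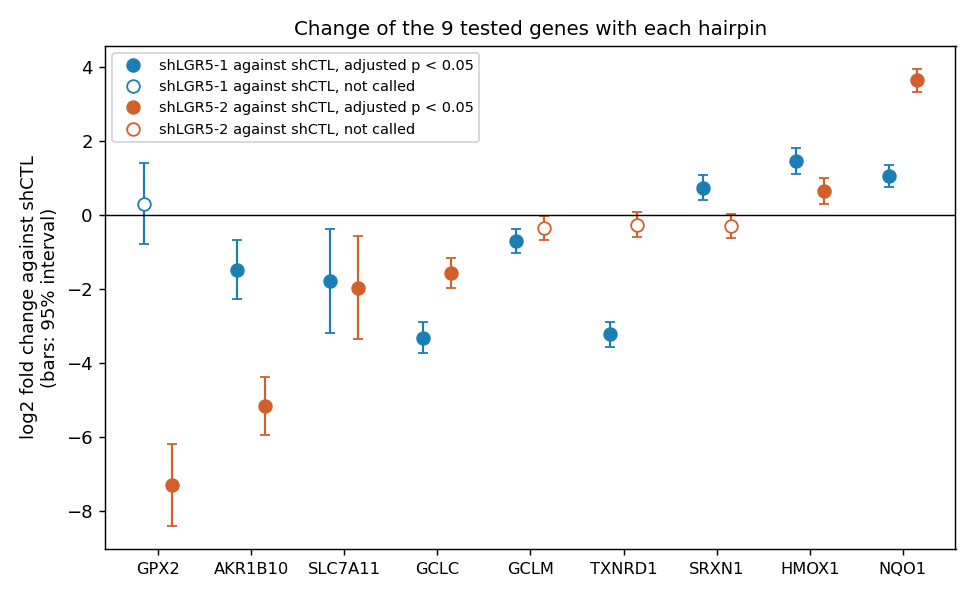
Log2 change against shCTL of each tested NRF2 target gene and GPX2 with each hairpin, on the log2(intensity + 16) scale. Points are estimates, bars 95% intervals, and filled points have a limma adjusted p below 0.05. GPX2 and AKR1B10 have their lowest values in shLGR5-2, GCLC and TXNRD1 in shLGR5-1, and NQO1 lies above 0 with both hairpins.

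AKR1B10 reduces aldehydes and retinal and is a strong NRF2 target in human cells. It read 1072.1 and 986.5 in shCTL, 369.5 and 347.8 in shLGR5-1, and 23.7 and 5.2 in shLGR5-2, where 1 of 2 arrays was above the threshold. The signal stepped down from group to group with no overlap. It was 2.79-fold lower with shLGR5-1 (log2 -1.48 ± 0.31, limma adjusted p = 0.00869) and lower by a fitted log2 change of -5.17 ± 0.31 with shLGR5-2 (limma adjusted p = 3.85e-04). The larger value was -4.08 with an offset of 50 and -6.53 with a floor of 1; the smaller lost its call with that floor (adjusted p = 0.151) and without shCTL replicate 1 (0.0576), in a range of 2.78e-04 to 0.151 over 16 alternatives. AKR1C1, which reduces steroids such as progesterone, read -10.9 and -11.9, -17.2 and -17.8, and -23.1 and -9.0 in the same order and was not tested.

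Most measured relatives of AKR1B10 were also lower in shLGR5-2. The shares over all genes were 40.3% higher and 31.5% lower with shLGR5-1, and 21.6% and 22.6% with shLGR5-2. Of 8 other aldo-keto reductases with a probe, all tested, 1 rose and 5 fell with shLGR5-1, and 1 rose and 6 fell with shLGR5-2, with medians of -0.84 and -2.73; the 6 changed with shLGR5-1 became 3 without shCTL replicate 1, and the 7 with shLGR5-2 became 4 under a strict filter that tests fewer dim genes. AKR1C3, a ketosteroid and prostaglandin reductase, read 3758.9 and 3693.4 in shCTL, 1551.8 and 1464.1 in shLGR5-1, and 83.4 and 80.1 in shLGR5-2, a fall of 2.46-fold and 38.3-fold (limma adjusted p = 4.81e-04 and 4.13e-05); the first was -0.61 on the log2 scale in place of -1.30 with the span trend removed. AKR1C2 read 887.4 and 761.3, then 403.1 and 404.6, then -2.9 and -4.8, which is 2.00-fold lower with shLGR5-1 (limma adjusted p = 0.00149) and at least 50-fold lower with shLGR5-2 (limma adjusted p = 4.13e-05). AKR1C4, mainly a liver enzyme, was 40.9-fold lower with shLGR5-2 (1459.3 and 1215.2 against 7.2 and 30.7, 1 of 2 above the threshold, limma adjusted p = 5.13e-04; log2 -5.36, and -4.35 with an offset of 50 or -6.48 with a floor of 1). AKR1B15 was at least 14.9-fold lower there (limma adjusted p = 9.01e-04). The riser was AKR1D1, a steroid 5-beta-reductase, which read 5661.6 and 6092.4 in shCTL, 3606.6 and 3668.1 in shLGR5-1, and 8770.4 and 8112.2 in shLGR5-2. It was 1.44-fold higher with shLGR5-2 (limma adjusted p = 0.0187), a call lost without either shCTL array or shLGR5-2 replicate 1 (adjusted p up to 0.089; 0.00139 to 0.089 over 17 alternatives). AKR7A2, at -0.32, did not pass there (limma adjusted p = 0.0825). The AKR1C genes are closely related and lie side by side on chromosome 10, and AKR1B10 and AKR1B15 are related neighbours on chromosome 7. How far each probe reads its neighbour is therefore uncertain. A further 5 AKR1C2 probes did not pass the filter on dim probes.

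NFE2L2 itself was low in 1 line. It read 2133.6 and 2008.5 in shCTL, 85.7 and 119.9 in shLGR5-1, and 2013.9 and 1515.8 in shLGR5-2. The shLGR5-1 arrays lay far below all others, and the shLGR5-2 arrays overlapped the controls. The fall with shLGR5-1 was 17.7-fold (log2 -4.15 ± 0.21, limma adjusted p = 1.83e-04), and with shLGR5-2 the log2 difference of -0.24 did not pass (95% interval -0.79 to 0.30, limma adjusted p = 0.398). In shLGR5-1, where the NFE2L2 mRNA was low, GCLC and TXNRD1 were at their lowest and NQO1, HMOX1 and SRXN1 were above the controls. KEAP1, which targets NRF2 for destruction, read 691.0 and 699.6 in shCTL, 1462.9 and 1547.0 in shLGR5-1, and 900.5 and 979.8 in shLGR5-2. It rose 2.14-fold with shLGR5-1 (limma adjusted p = 8.49e-04) and 1.34-fold with shLGR5-2 (limma adjusted p = 0.0331), a second call that did not survive omission of either shCTL array or either shLGR5-2 array (adjusted p up to 0.118; 0.00722 to 0.118 over 17 alternatives). SQSTM1, the autophagy receptor p62 that can displace NRF2 from KEAP1 and is itself an NRF2 target, fell 1.72-fold and 1.89-fold (limma adjusted p = 0.00481 and 0.00578). DPP3, another KEAP1-binding protein, rose 4.74-fold and 4.80-fold (limma adjusted p = 5.56e-04 and 0.00112). Among all genes, 40.3% rose and 31.5% fell with shLGR5-1, and 21.6% rose and 22.6% fell with shLGR5-2. Over the 10 tested regulators of NRF2, 6 rose and 3 fell with shLGR5-1, and 3 rose and 1 fell with shLGR5-2, with medians of 0.54 and 0.07; the 4 with shLGR5-2 became 2 without shCTL replicate 1 or either shLGR5-2 array.

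The wider set of NRF2 targets also held genes that rose and genes that fell. Of 27 tested genes (30 with a probe), 13 rose and 8 fell with shLGR5-1, with a median of 0.27 (0.28 over all genes, of which 40.3% rose and 31.5% fell), and 6 rose and 12 fell with shLGR5-2, with a median of -0.36 (0.00 over all genes, of which 21.6% rose and 22.6% fell); the first count is 12 to 13 changed genes in place of 21 without shCTL replicate 1, shCTL replicate 2 or shLGR5-1 replicate 2. ALDH3A1, an aldehyde dehydrogenase, rose with both hairpins, from 269.5 and 214.6 in shCTL to 797.0 and 771.6 in shLGR5-1 and 1152.7 and 1245.6 in shLGR5-2 (3.12-fold and 4.73-fold, limma adjusted p = 5.83e-04 and 5.05e-04). IDH1, a cytosolic source of NADPH, read 5026.3 and 4684.8 in shCTL, 504.2 and 495.2 in shLGR5-1, and 3658.9 and 3905.6 in shLGR5-2, a 9.44-fold fall with shLGR5-1 (limma adjusted p = 1.23e-04). UGDH, which makes the sugar donor for glucuronidation, fell 9.81-fold with shLGR5-1 (limma adjusted p = 1.53e-04). BLVRB, a biliverdin reductase that acts after haem oxygenase, fell 3.61-fold with shLGR5-2 (limma adjusted p = 3.64e-04). AKR1C2 and AKR1C3, given above, also belong to this set.

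Other steps of glutathione handling did not share 1 direction. Beside the counts that follow, 40.3% of all genes rose and 31.5% fell with shLGR5-1, and 21.6% rose and 22.6% fell with shLGR5-2. Of 15 tested genes, 4 rose and 5 fell with shLGR5-1, and 4 rose and 4 fell with shLGR5-2; both counts came to 5 changed genes without shCTL replicate 1, and the second also without either shLGR5-2 array. GSS, the enzyme after glutamate-cysteine ligase, rose 2.35-fold and 1.78-fold (limma adjusted p = 8.35e-04 and 0.00599), opposite to GCLC. GLO1, which clears methylglyoxal with glutathione, read 6410.7 and 6558.3 in shCTL, 517.5 and 677.5 in shLGR5-1, and 8391.3 and 8205.9 in shLGR5-2, 10.7-fold lower with shLGR5-1 (limma adjusted p = 1.64e-04). OPLAH, which returns 5-oxoproline to glutamate, read 948.3 and 827.6 in shCTL and 11.5 and 20.8 in shLGR5-2, 1 of 2 arrays there being above the threshold. The fitted log2 change was -4.83 (limma adjusted p = 1.09e-04), with -3.83 at an offset of 50 and -5.84 with a floor of 1. CHAC1, which degrades glutathione, fell 3.54-fold with shLGR5-2 (limma adjusted p = 6.57e-04).

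Among 12 tested thioredoxins, peroxiredoxins and their regulators, 7 rose and 3 fell with shLGR5-1 and 2 rose and 4 fell with shLGR5-2; with shLGR5-1 the 10 changed genes became 5 once the trend with gene span was removed, and 6 without shCTL replicate 2 or shLGR5-1 replicate 1. The shares over all genes were 40.3% higher and 31.5% lower with shLGR5-1, and 21.6% and 22.6% with shLGR5-2. TXNIP, the inhibitor that binds thioredoxin, fell with both hairpins, from 3895.9 and 4315.7 in shCTL to 461.3 and 554.1 in shLGR5-1 and 125.2 and 163.9 in shLGR5-2 (7.89-fold and 25.8-fold, limma adjusted p = 2.36e-04 and 1.14e-04). PRDX3, the mitochondrial peroxiredoxin, fell 4.68-fold with shLGR5-1 (limma adjusted p = 3.03e-04). TXNRD2, the mitochondrial relative of TXNRD1, rose 2.13-fold with shLGR5-1 (limma adjusted p = 0.00206; log2 1.84 in place of 1.09 with the span trend removed), opposite to TXNRD1.

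GPX2 and TXNRD1 are selenoproteins. Leaving aside the peroxidases and TXNRD2 given above, 22 further selenoprotein and selenocysteine synthesis genes were tested, and they went in both directions. With shLGR5-1, 6 rose and 6 fell (40.3% and 31.5% of all genes). With shLGR5-2, 3 rose and 6 fell (21.6% and 22.6% of all genes). The medians over these 22 genes were -0.04 and -0.07. SECISBP2, which directs selenocysteine insertion, fell 4.98-fold with shLGR5-1 (limma adjusted p = 4.56e-04; log2 -1.73 in place of -2.32 with the span trend removed). SELENOW rose 3.39-fold and 1.91-fold (limma adjusted p = 2.38e-04 and 0.0025), and SELENOM, a thiol-disulfide enzyme of the endoplasmic reticulum, fell 7.18-fold with shLGR5-2 (limma adjusted p = 5.19e-04).

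Around SLC7A11, 16 amino acid transporters and targets of the stress factor ATF4 were tested. With shLGR5-1, 2 rose and 8 fell, beside 40.3% and 31.5% of all genes, and with shLGR5-2, 2 rose and 10 fell, beside 21.6% and 22.6%. Their medians were -0.40 and -1.03, beside 0.28 and 0.00 over all genes. DDIT3, the stress factor CHOP, read 1167.9 and 1189.3 in shCTL, 185.1 and 157.0 in shLGR5-1, and 118.8 and 89.7 in shLGR5-2, 6.40-fold and 10.0-fold lower (limma adjusted p = 2.51e-04 and 2.43e-04). ASNS, asparagine synthetase, fell 7.26-fold and 3.65-fold (limma adjusted p = 1.36e-04 and 3.91e-04), the first being -2.07 on the log2 scale in place of -2.86 with the span trend removed.

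Around HMOX1, 14 genes of haem and iron handling were tested, of which 7 rose and 4 fell with shLGR5-1 and 4 rose and 4 fell with shLGR5-2. For these counts and the superoxide dismutase counts below, the shares over all genes were 40.3% and 31.5% with shLGR5-1. With shLGR5-2 they were 21.6% and 22.6%. SLC40A1, the iron exporter ferroportin and another NRF2 target, was at least 8.24-fold lower with each hairpin by its brighter probe (limma adjusted p = 1.62e-04 and 2.16e-04), and the mean of its 2 probes gave smaller log2 changes of -2.08 and -1.61. With a floor of 1 the other SLC40A1 probe had the higher mean and stood for the gene. It gave log2 changes of -2.51 with shLGR5-1 and -0.22 with shLGR5-2, neither of them called (limma adjusted p = 0.109 and 0.892). The lost calls thus came with a change of probe as well as of floor, and the part of each was not tested. The lowest limma adjusted p over 16 alternatives was 2.20e-05 and 4.01e-05. TFRC, the transferrin receptor, fell 16.7-fold with shLGR5-1 (limma adjusted p = 2.44e-04). CPOX, a haem synthesis enzyme, rose 5.31-fold with shLGR5-2 (limma adjusted p = 0.00104). Of 8 tested superoxide dismutase, catalase and NADPH oxidase genes, 4 rose and 1 fell with shLGR5-1 and 1 rose and 1 fell with shLGR5-2, counts that became 3 without shCTL replicate 2 and, with shLGR5-2, 0 or 1 on omission of any shCTL or shLGR5-2 array. CAT, catalase, was the gene that fell with shLGR5-1, 4.06-fold (limma adjusted p = 4.00e-04).

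The direct comparison of the hairpin lines separated members of the same branch: TXNRD1 from SRXN1, GCLC from GPX2, and NQO1 from AKR1B10 and HMOX1. Its log2 differences use no control array, but its SE and adjusted p rest on a spread estimated from all 6 arrays. GPX2, AKR1B10, HMOX1 and SRXN1 were lower in shLGR5-2, and NQO1, TXNRD1 and GCLC were higher there. For TXNRD1 the difference was 2.96 ± 0.13 on the log2 scale, 7.76-fold (limma adjusted p = 8.32e-05), and for NQO1 it was 2.60 ± 0.12, 6.06-fold (limma adjusted p = 8.84e-05). For AKR1B10 it was -3.69 ± 0.31 (limma adjusted p = 3.90e-04), with -2.68 at an offset of 50 and -5.01 with a floor of 1. The difference for GPX2 was -6.83 with an offset of 50, -8.28 with a floor of 1, -8.27 without shLGR5-2 replicate 1 and -6.95 without replicate 2. That for TXNRD1 was 2.17 with the span trend described below removed. GCLC differed by 1.75 ± 0.16 (limma adjusted p = 4.99e-04, and 0.97 as the mean of its probes) and HMOX1 by -0.80 ± 0.14 (limma adjusted p = 0.00422). The dim second GCLC probe, at 0.18, did not pass (limma adjusted p = 0.776). GCLM, at 0.35 (95% interval 0.02 to 0.68, limma adjusted p = 0.0568), and SLC7A11, at -0.17 (95% interval -1.57 to 1.23, limma adjusted p = 0.793), did not pass. The second GCLM probe did, at 1.86 (3.63-fold, limma adjusted p = 0.0173), as did the mean of both GCLM probes at 1.11 (adjusted p = 0.0103); 4 of 17 alternatives called GCLM, with adjusted p from 0.0103 to 0.161. NFE2L2 was 15.0-fold higher in shLGR5-2 than in shLGR5-1 (limma adjusted p = 1.28e-04).

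The change with shLGR5-1 ran with the genomic span of genes, the distance from a gene's start to its end. Over all genes with a span the median log2 change fell from 0.71 for those under 10 kb to -0.61 for those over 80 kb, and the rank correlation was -0.33 over 12101 genes on the same arrays, given as a description. With shLGR5-2 the bin medians lay between -0.03 and 0.02. The members followed the same order: SRXN1 (6.6 kb), HMOX1 (13.1 kb) and NQO1 (17.2 kb) were higher with shLGR5-1, and GCLM (24.2 kb), GCLC (47.8 kb), SLC7A11 (78.3 kb) and TXNRD1 (134.5 kb) lower, with AKR1B10 (13.8 kb) the short gene that was lower and GPX2 (3.6 kb) not called. With the trend taken out across all genes, GCLC kept a log2 change of -2.75 (limma adjusted p = 2.83e-04), TXNRD1 -2.36 (2.26e-04), HMOX1 1.22 (0.00104) and NQO1 0.95 (0.0017). SRXN1 dropped to 0.26 (limma adjusted p = 0.132, against 6.62e-04 to 0.132 over 17 alternatives) and SLC7A11 to -1.0 (limma adjusted p = 0.169), so neither remained called.

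**Figure D4:**
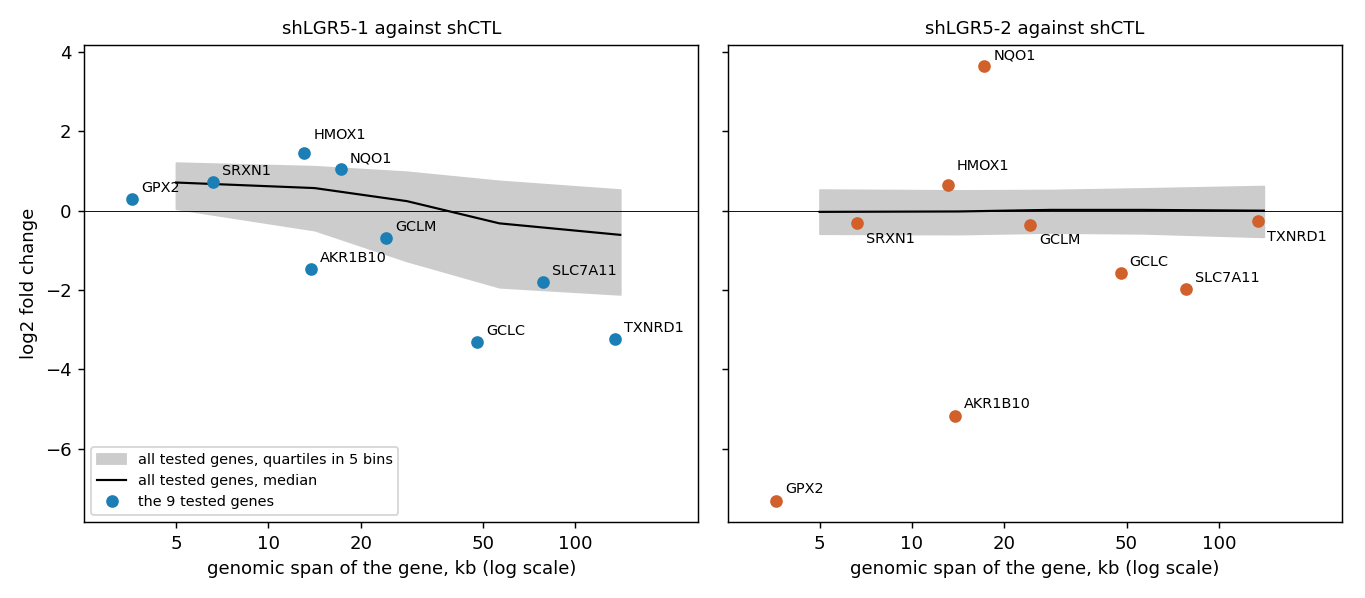
Log2 change against shCTL by genomic span (log axis, kb), with shLGR5-1 in the left panel and shLGR5-2 in the right. Labelled points are the tested NRF2 target genes and GPX2, and the line joins medians of all tested genes in 5 span bins, drawn inside each bin, with the shaded band between their quartiles; with shLGR5-1 the medians fall from 0.71 to -0.61, while with shLGR5-2 they stay between -0.03 and 0.02.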

How the data were processed

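Total RNA from 6 LoVo samples was hybridised to Illumina bead arrays; the submitters' processing notes list GenomeStudio without a version. The authors deposited linear intensities, already background-subtracted and quantile-normalized as the values show (30.5% below 0 on each array; at any rank the arrays differ by at most 0.7). A further 12 value columns match no sample's labels and were not used. Between 20641 and 20705 of 47323 probes an array were above a threshold of 16.45, which is the 0.95 quantile of noise with an SD of 10.0 (root mean square of values below 0); 2 arrays a group limit the precision.

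Negative values were set to 0, 16 was added and log2 taken, which understates changes of dim genes. Probes above the threshold on both arrays of at least 1 group were kept, and the brightest stood for its gene (12111 genes; names from the platform annotation and RefSeq GRCh38.p14). Limma 3.58.1 in R 4.3.3 (lmFit, eBayes) fitted all 6 arrays with group as the term and 3 contrasts, with two-sided tests and Benjamini-Hochberg adjustment over all genes. "At least" marks a fold against a group with no array above the threshold, computed with dim values at the threshold and without the offset. The script was tested on simulated data. Same-numbered arrays did not deviate together (correlations 0.017, 0.0068 and 0.0021). Labels and files gave no batch.

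The members and the 10 gene lists (159 genes, 126 tested) were chosen with earlier results of these data known. The text names all members, and of each list up to 4 genes with the smallest adjusted p in a comparison. Alternatives were other offsets, filters and probe rules, median centring, an intensity trend, the 4 arrays compared alone, removal of the span trend, a replicate block, and each array left out.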

Additional observations from a re-analysis of the deposited data

Results flagged for a closer look

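A total of 7 members differed between the hairpin lines under the same contrast, by the direct limma test of shLGR5-2 against shLGR5-1. On the log2 scale the difference was -7.61 for GPX2, -3.69 for AKR1B10, -1.04 for SRXN1 and -0.80 for HMOX1, all lower in shLGR5-2. It was 2.96 for TXNRD1, 2.60 for NQO1 and 1.75 for GCLC, all higher in shLGR5-2. Each of the 7 was called in every alternative in which the gene was tested. The same test called 73.3% of all genes, and the second GCLC probe on its own was not called (log2 0.18, limma adjusted p = 0.776).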

How the results depend on the processing

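For the 9 tested members, 424 recomputed log2 changes kept their side of the threshold, 19 lost a call and 7 gained one. No called change reversed, but 5 differences that passed in neither setting changed sign: GPX2 with shLGR5-1 (-0.26 with the span trend removed), GCLM and TXNRD1 with shLGR5-2 (0.02 and 0.01 as the mean of probes), and SLC7A11 between the hairpins (0.27 without shLGR5-1 replicate 1 and 0.55 without shLGR5-2 replicate 1). The lost calls were those of SLC7A11, AKR1B10 (shLGR5-1), SRXN1 (shLGR5-1) and HMOX1 (shLGR5-2) given above. Leaving out 1 array at a time gave 6 to 8 changed members with shLGR5-1, 4 to 6 with shLGR5-2 and 7 in the direct comparison. Over all genes it gave 7157 to 8555, 3148 to 5917 and 7814 to 8580 changed genes, the lowest count with shLGR5-2 coming without shCTL replicate 1 (3148, and 3227 without shCTL replicate 2) in place of 5349; in these fits the lone array is assumed to vary like the other groups. The arrays share only a replicate number. A replicate block gave 7, 5 and 7 changed members and 8578, 4911 and 8764 changed genes in the 3 comparisons. With the span trend removed, 4 differences between the hairpins changed sign or went to 0: LGR5 (-0.07, adjusted p = 0.796), GPX1 (0.55, 0.0116), GPX4 (0.69, 0.00294) and DDIT3 (0.00, 0.991). The strict filter on dim probes left out GPX2, AKR1B10 and SLC7A11. Signal over background limits GPX2 and AKR1B10 in shLGR5-2, SLC7A11 and LGR5 in both hairpin lines, and AKR1C1 in all groups.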
